A study of Mus musculus with 12 samples.

Results

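The growth hormone, STAT5 and IGF axis was described here through 10 genes of the mouse liver transcriptome: Ghr, Jak2, Stat5a, Stat5b, Socs2, Cish, Igf1, Igfals, Igfbp1 and Igfbp2. They were taken as the rows whose symbol matched those names, 10 of 21705 genes in the table. Livers came from C57BL/6J female mice that were bought at 8 weeks of age, acclimated for at least 10 days and dosed through the tail vein. The saline group of 6 mice received saline, and the LNA29 group of 6 mice received LNA29a and LNA29bc together at 20 mg/kg each. These are locked nucleic acid oligonucleotides, short antisense strands with a stiffened sugar, made to pair with miR-29a or with miR-29b and miR-29c and so block them. All livers were taken on day 7 after an overnight fast, and polyadenylated RNA was sequenced with 1 library per liver. The comparison set gene expression in LNA29 livers against that in saline livers. None of the sequenced livers had been given a control oligonucleotide. Whether a difference came from blocking miR-29 or from being dosed with any such oligonucleotide was therefore not tested.

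Growth hormone from the pituitary binds its receptor GHR on hepatocytes, which activates the kinase JAK2 and, through it, the transcription factors STAT5A and STAT5B. STAT5 drives transcription of Igf1, of Igfals and of the feedback inhibitors Socs2 and Cish. IGF1 leaves the liver and circulates bound to IGF-binding proteins, and fasting is known to lower hepatic growth hormone signalling and to raise Igfbp1. In rodents the axis also sets many sex-biased liver genes, because growth hormone is secreted in pulses in males and more continuously in females.

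The table gives a scaled value per gene and liver, in which the upper quartile of genes with reads is 1000 (998 in saline replicate 49) and 1 read is worth 9.80 to 24.4. Genes without reads are listed at 1. Recovered depth was 8217226 to 19062443 reads in saline livers (median 12011987) and 7696080 to 15079232 in LNA29 livers (median 9123462). The library of saline replicate 49 stood apart: albumin took 35.7% of its reads, against 43.6% to 46.9% in the other saline livers. Its values also rose most with transcript length. The Spearman rho between length and deviation from each gene's mean was 0.49 in it. In the other livers rho was -0.29 (saline replicate 47) to 0.27 (saline replicate 43). Saline replicate 49 was also the highest saline liver for 4 members (Stat5a, Stat5b, Socs2 and Cish) and the lowest for 3 (Igf1, Igfbp1 and Igfbp2). Values without it are therefore given below for these 7 members and for Igfals. Fold changes are on the log2(value + 1) scale, LNA29 minus saline. The added 1 understates changes of low genes, whereas a liver without reads, set to 1 where a single read is worth 9.80 or more, can widen them.

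All 10 members passed the filter of a mean value of at least 10, and 12486 genes were tested with limma. Of the 10, 1 member had an adjusted p under 0.05, Igfals, where the background was 0.160% of tested genes (20 genes, 9 higher and 11 lower in LNA29). At an unadjusted limma p under 0.05 there were 4 members (Ghr, Igf1, Igfals and Igfbp2), against a background of 7.91%. The 6 livers of a group lay entirely above or below the other 6 for 2 members, Igfbp2 and Igfals, where 0.985% of tested genes did so. The thresholds of the study, group means that differ 1.5-fold or more and a one-tailed t-test p not above 0.05 without adjustment, took 2 members (Igfals and Igfbp2) and 6.10% of tested genes. The median log2 fold change of the members was 0.06, beside -0.09 for all tested genes, and the members moved in both directions. The median of all tested genes depended on the scaling. It was -0.048 with a common median, -0.028 with TMM scaling, -0.016 with edgeR and -0.008 with DESeq2.

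**Figure D1:**
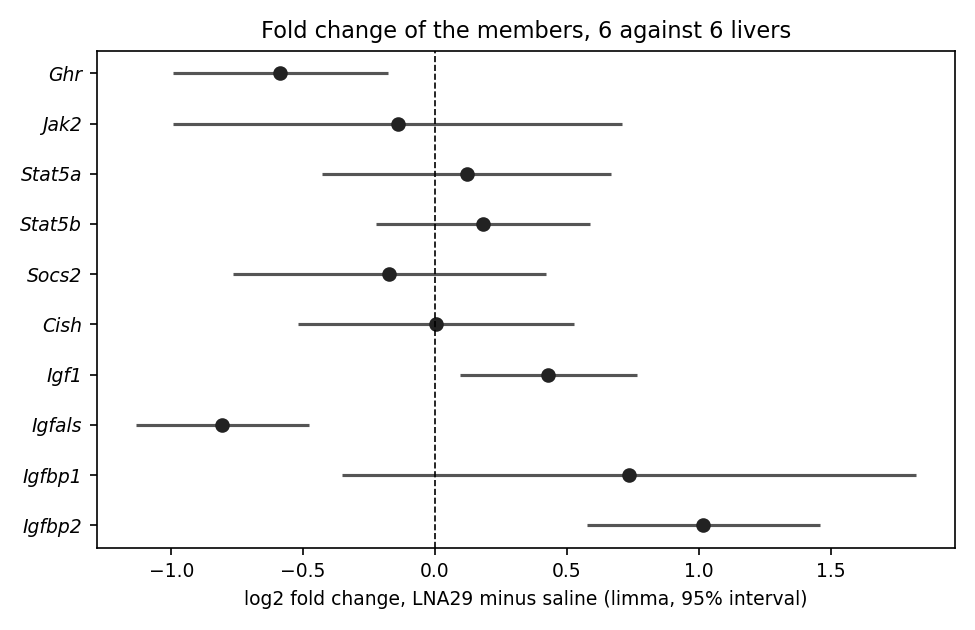
Log2 fold change of each member, LNA29 minus saline, with the 95% interval from limma over 6 saline and 6 LNA29 livers. The intervals of Ghr, Igf1, Igfals and Igfbp2 do not reach 0, and those of the other members do.

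The receptor gene Ghr (chr15:3317755-3583352 in GRCm38) had values of 2000 to 3688 in saline livers, with a median of 2254, and 1146 to 2475 in LNA29 livers, with a median of 1643. The groups overlapped through 1 LNA29 liver, replicate 44 at 2475; the other 5 LNA29 livers were below every saline liver. Saline replicate 43, at 3688, stood above the other saline livers, which ended at 2381. The log2 fold change was -0.59 with a standard error of 0.19, or about 1.5-fold lower (p = 0.0152 in a 2-sided exact permutation test with 924 divisions of the livers). The difference did not pass adjustment over all genes, with a limma adjusted p of 0.347. Leaving out saline replicate 43 moved the log2 fold change to -0.46. With values beyond 1.5 SD of their group mean left out, the limma adjusted p was 0.0461. Leaving out such values narrows the spread within groups by construction, for every gene that has them. The highest adjusted p of the 10 alternative settings was 0.550, from edgeR. In bulk RNA, fewer cells that make a transcript and less of it per cell cannot be told apart, which holds for every gene here.

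Jak2, the kinase bound to the receptor, was read too rarely to compare. It had 3 to 11 reads in saline livers and 2 to 8 in LNA29 livers. Its scaled values were 52.6 to 172 in saline livers, with a median of 70.4, and 37.7 to 110 in LNA29 livers, with a median of 82.1. The groups overlapped over most of their range, with 4 of 6 LNA29 livers above the saline median. Its log2 fold change was -0.14 with a 95% interval of -0.99 to 0.71, the second widest of the members. It turned to 0.073 without saline replicate 43 and to 0.045 without LNA29 replicate 48, so no direction is given for it.

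The transcription factor genes Stat5a and Stat5b lie next to each other on chromosome 11, at chr11:100859351-100885169 on the plus strand and chr11:100780731-100859004 on the minus strand of GRCm38. Their longest transcripts share 265 stretches of 100 bases, the length of a read, which is 6.99% of those in Stat5a and 5.18% of those in Stat5b. The counting divided such reads between them: in 7 of 12 livers both genes had fractional read numbers, and the other 8 members had whole numbers in every liver. The single values of both genes are therefore uncertain.

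Stat5b had values of 857 to 2084 in saline livers, with a median of 1122, and 1132 to 1634 in LNA29 livers, with a median of 1420. All 6 LNA29 livers were above the saline median, yet saline replicate 49 was the highest liver of all. The log2 fold change was 0.18 with a standard error of 0.19 (limma adjusted p = 0.878), and it ranged from 0.08 without saline replicate 45 to 0.33 without saline replicate 49. Stat5a was lower, at 238 to 566 in saline and 264 to 532 in LNA29 livers, with medians of 377 and 455. Its log2 fold change of 0.12 had a standard error of 0.26 and was 0.25 without saline replicate 49 and -0.0009 without saline replicate 45, so no direction is given for it. The groups overlapped almost entirely. Added together, the 2 genes had values of 1095 to 2650 in saline and 1396 to 2151 in LNA29 livers. The log2 fold change of the sum was 0.17, within the spread between livers (2-sided exact permutation test, p = 0.418).

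The feedback inhibitors Socs2 and Cish are transcribed in response to STAT5 and dampen signalling from the receptor. Socs2 had values of 246 to 690 in saline livers (median 386) and 189 to 482 in LNA29 livers (median 353), from 10 to 69 reads. The groups overlapped, with saline replicate 49 highest and LNA29 replicate 48 lowest. The log2 fold change of Socs2 was -0.17 with a 95% interval of -0.77 to 0.42, and -0.01 without saline replicate 49. With 1 liver left out it ranged from -0.30 without saline replicate 47 to -0.0024 without LNA29 replicate 48. It turned to 0.17 once values beyond 1.5 SD of the group mean were left out, so no direction is given for it. Cish had values of 141 to 260 in saline livers (median 192) and 161 to 244 in LNA29 livers (median 183), from 9 to 26 reads. The LNA29 livers lay inside the saline range. Its log2 fold change was 0.00 with a 95% interval of -0.52 to 0.53, and it ranged from -0.083 without saline replicate 43 to 0.093 without saline replicate 49.

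The promoter of Cish is shown because it holds the palindrome that STAT5 dimers are known to bind, TTC and GAA with any 3 bases between, which reads the same on both strands. Promoters here are 250 bases before to 50 bases after the start site, from RefSeq on GRCm38.p6. The table matched 9 of the 10 members with 15 start sites, and Socs2 was not matched. The motif was in 3 of these 15 promoters and in 2726 of 32851 promoters of all genes (8.30%). Cish had 2 matches, which 150 of all promoters (0.457%) also had or exceeded, centred 4 and 15 bases after the start site. In the sequence, chr9:107296409-107296708 on the plus strand, capitals mark both matches.

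Cish: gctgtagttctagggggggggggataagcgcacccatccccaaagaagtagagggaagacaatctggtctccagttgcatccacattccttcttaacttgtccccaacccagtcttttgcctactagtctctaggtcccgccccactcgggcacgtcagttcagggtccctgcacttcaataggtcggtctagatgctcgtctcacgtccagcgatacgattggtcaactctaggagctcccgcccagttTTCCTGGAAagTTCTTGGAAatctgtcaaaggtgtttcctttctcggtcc

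The motif is a description of letters, and it carries no measurement of STAT5 on this promoter.

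Igf1, the hormone gene of the axis (chr10:87858265-87937047), was measured from 806 to 2726 reads per liver. Its values were 15160 to 23510 in saline livers, with a median of 18633, and 19659 to 34075 in LNA29 livers, with a median of 24351. All 6 LNA29 livers were above the saline median and 4 were above every saline liver; LNA29 replicate 44 was highest and replicate 46 lowest of its group. The log2 fold change was 0.43 with a standard error of 0.16, or 1.35-fold higher (2-sided exact permutation test, p = 0.0216). Over all genes the difference did not pass, with a limma adjusted p of 0.455, and the 10 alternative settings gave adjusted p from 0.145 (DESeq2) to 0.562 (limma with a common median). Without saline replicate 49 the log2 fold change was 0.37.

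Igf1 was the only member with a 3′ UTR match to miR-29, meaning the reverse complement of its seed, bases 2 to 8, by which a miRNA mainly recognises its targets. The mature miRNAs that the oligonucleotides were made against share that seed, shown in capitals, and differ after it.

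miR-29a-3p: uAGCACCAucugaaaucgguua
miR-29b-3p: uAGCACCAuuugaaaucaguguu
miR-29c-3p: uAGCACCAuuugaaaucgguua

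The longest annotated 3′ UTR of Igf1 is 6308 bases in GENCODE M21 and holds 2 matches of 7 bases, both in exon 4. Both are followed by an A, which makes them matches of 8 bases. The first lies at position 937 of the UTR, at chr10:87931671-87931677, and the second at position 3571, at chr10:87934305-87934311, on the plus strand of GRCm38. They are shown with 15 bases before and 1 base after the match, which is in capitals.

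Igf1 site 1: tgttttttagtacaaTGGTGCTa
Igf1 site 2: ccagctacgccaatgTGGTGCTa

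Of all 19677 genes with an annotated 3′ UTR, 2673 (13.6%) had a match of 7 bases, 587 (2.98%) a match of 8 bases and 420 (2.13%) at least 2 matches of 7. These shares take no account of UTR length. The 3′ UTRs of the other 9 members were shorter than that of Igf1, at 262 (Igfals) to 2365 bases (Stat5b). Those 9 members had no match. In the other gene lists of the axis, described below, Igfbp4, Ptpn11, Socs1, Socs7 and Serpina12 had 2 matches of 7 bases each. Angptl4, Foxo1, G6pc, Hnf4a, Irs1, Ppargc1a and Sh2b1 had 1 each. Of these genes, Irs1 and Serpina12 also had a match of 8 bases. Whether genes with a match changed more than others was not tested. A match is not a measured site, and no binding was measured here.

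Igfals encodes the acid-labile subunit, the liver protein that holds IGF1 and an IGF-binding protein in a large circulating complex. Its values were 3778 to 4719 in saline livers, with a median of 4137, and 1537 to 3054 in LNA29 livers, with a median of 2586, from 63 to 462 reads. Every LNA29 liver was below every saline liver, and the lowest was LNA29 replicate 46. Igfals fell by 0.81 on the log2 scale with a standard error of 0.16, or 1.75-fold lower, with a limma adjusted p of 0.0468. The 2-sided exact permutation test gave p = 0.00216, the smallest that 6 against 6 livers can give. The call was lost with each liver shifted to a common median (limma adjusted p = 0.185), with TMM scaling (0.103) and with the edgeR test (0.122), and the adjusted p was as low as 0.00405 in DESeq2. Leaving out any 1 of 11 livers gave a limma adjusted p of 0.0572 (saline replicate 49, log2 fold change -0.82) to 0.139; without LNA29 replicate 48 it was 0.0359.

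The gene lies at chr17:24877844-24882011 in GRCm38 and has 3 start sites in the promoter table, 2 of them with 1 match to the STAT5 palindrome. The promoter of the second is shown beside that of Cish because Igfals is the member that passed; it is chr17:24877981-24878280 on the plus strand, and the match, in capitals, is centred 54 bases before the start site.

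Igfals: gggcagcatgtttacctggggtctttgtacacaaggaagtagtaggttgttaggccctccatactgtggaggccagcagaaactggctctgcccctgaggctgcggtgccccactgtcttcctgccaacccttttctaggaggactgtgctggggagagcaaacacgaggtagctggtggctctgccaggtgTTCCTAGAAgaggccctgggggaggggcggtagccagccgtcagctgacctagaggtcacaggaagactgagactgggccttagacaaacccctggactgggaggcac

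Of the 2 genes with such matches, Igfals passed and Cish did not. Whether their fold changes differed from each other was not tested.

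Igfbp1 and Igfbp2 are liver-made binding proteins that limit free IGF1, and transcription of Igfbp1 is acutely repressed by insulin. Igfbp1 was the most variable member. Its values were 4010 to 25029 in saline livers, with a median of 6768, and 3660 to 45863 in LNA29 livers, with a median of 12473. Saline replicate 53 and LNA29 replicates 46 and 54 were high, at 25029, 28951 and 45863, and the lowest and the highest liver were both in the LNA29 group. The SD of its log2 values was 0.95 in saline and 1.33 in LNA29 livers, where the other members had 0.13 to 0.60 and 0.21 to 0.56. Its log2 fold change was 0.74 with a 95% interval of -0.35 to 1.82 (limma adjusted p = 0.793), and it ranged from 0.38 without LNA29 replicate 54 to 1.11 without LNA29 replicate 48. Without saline replicate 49 it was 0.54.

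Igfbp2 (chr1:72824480-72852474) was measured from 3083 to 9034 reads per liver. Its values were 44940 to 88505 in saline livers, with a median of 59114, and 96875 to 170453 in LNA29 livers, with a median of 112831. Every LNA29 liver was above every saline liver; the highest saline liver was replicate 51 and the lowest LNA29 liver replicate 44. The log2 fold change was 1.02 with a standard error of 0.21, or 2.02-fold higher, with a 95% interval of 0.57 to 1.46. The 2-sided exact permutation test gave p = 0.00216, the smallest possible. Over all genes Igfbp2 ranked 26 by p and missed the threshold, with a limma adjusted p of 0.0682. It passed with DESeq2 (adjusted p = 0.000255), with the transcript length trend of each liver as a limma covariate (adjusted p = 0.00623) and with values beyond 1.5 SD left out (limma adjusted p = 0.0122), within a range up to 0.192. Leaving out 1 liver gave a limma adjusted p of 0.0715 to 0.195, with 0.0925 (log2 fold change 0.93) without saline replicate 49.

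**Figure D2:**
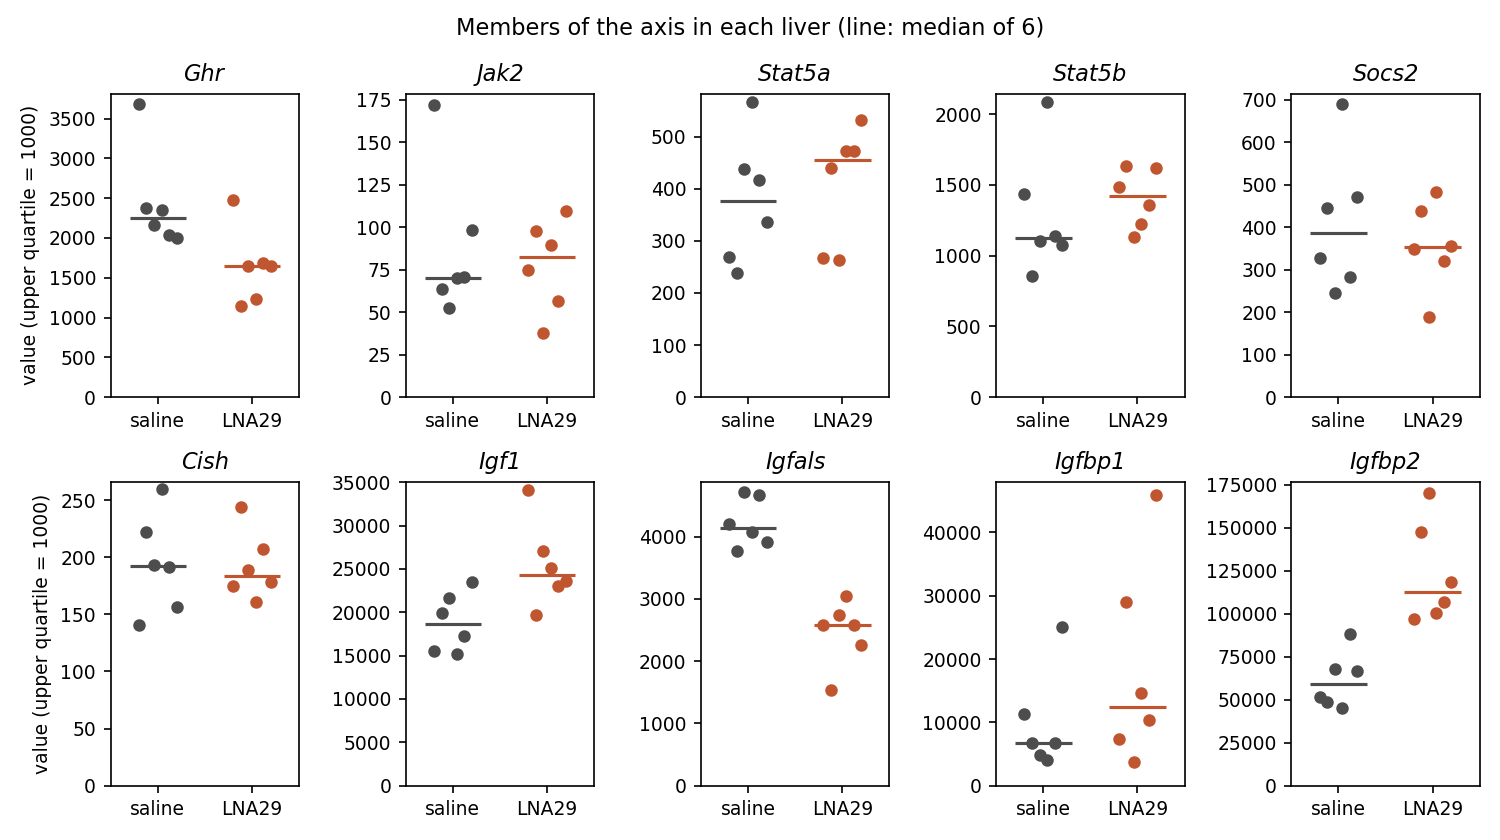
Value of each member in each liver on a linear axis from 0. The upper quartile of genes with reads is at 1000 (998 in saline replicate 49). Points are livers and lines are medians of 6. Igfals and Igfbp2 are the members whose groups do not overlap, with 3054 against 3778 and 88505 against 96875 at the nearest livers.

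Per kilobase of the longest annotated transcript, the saline medians ordered the members from Igfbp2 at 45230 per kb through Igfbp1 at 4438, Igf1 at 2642, Igfals at 1576, Ghr at 540, Stat5b at 215, Socs2 at 174, Stat5a at 96.9 and Cish at 67.5 to Jak2 at 14. The LNA29 medians had the same order, from 86330 per kb for Igfbp2 to 16.3 for Jak2. The binding protein genes could be compared among themselves on this scale. Igfbp2 made up 43.4% to 53.3% of the summed value per kb of Igfbp1 to Igfbp7 in saline livers and 55.1% to 68.1% in LNA29 livers. Igfbp4, named here after its values were seen, made up most of the rest, with 41.0% to 47.8% in saline and 22.8% to 34.2% in LNA29 livers. Its own values overlapped, with medians of 172590 and 164189 and differed by 0.02 in log2 (standard error 0.20). Igfbp3, the main partner of the acid-labile subunit in plasma, made up less than Igfbp1, with 0.116% to 0.383% in saline and 0.122% to 0.228% in LNA29 livers. The summed value per kb was 71690 to 127000 in saline and 121400 to 191400 in LNA29 livers, with 1 LNA29 liver below the highest saline liver.

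**Figure D3:**
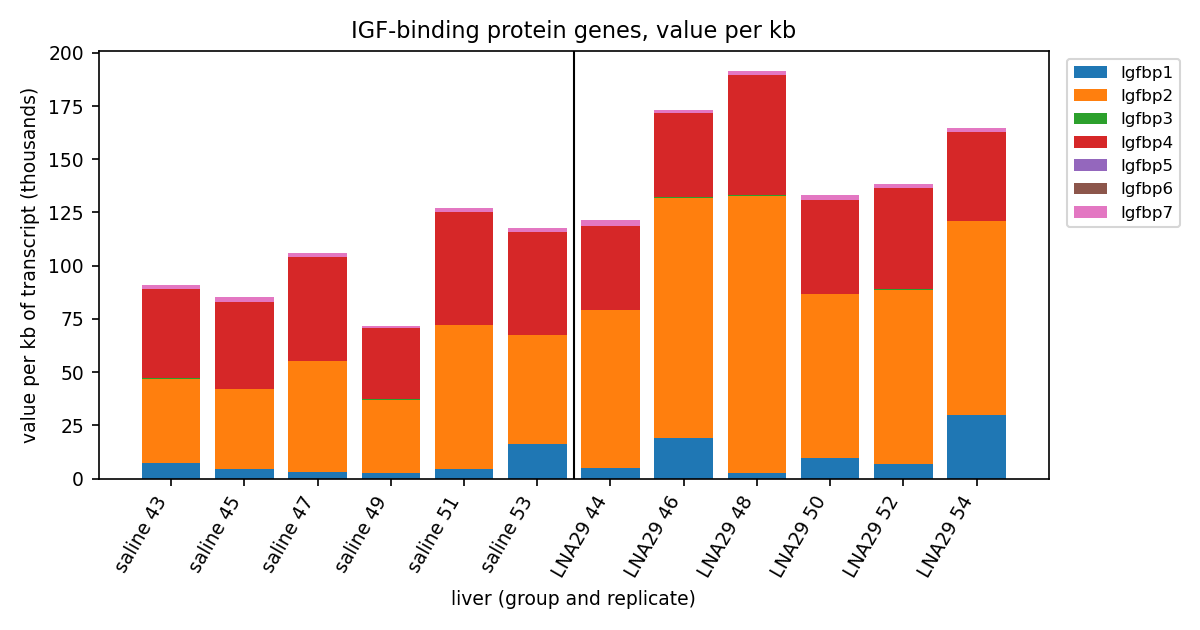
Value per kb of transcript of Igfbp1 to Igfbp7 in each liver, in units of 1000, stacked from 0 with saline livers left of the line and LNA29 livers right. Igfbp2 and Igfbp4 fill most of each bar, and the Igfbp2 share is 43.4% to 53.3% in saline and 55.1% to 68.1% in LNA29 livers.

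How the members varied together within groups was described by correlation. For all 45 pairs, the deviations of the log2 values from the group means were correlated over the 12 livers and tested by a permutation test within groups with 100000 draws. No pair had a Benjamini-Hochberg adjusted p under 0.05 in Pearson or Spearman correlation, and 2 pairs in each had an unadjusted p under 0.05. The pair with the smallest p was Jak2 and Igfbp1, with Pearson r = 0.760 (permutation p = 0.00698, adjusted p = 0.314) and Spearman rho = 0.783 (permutation p = 0.00656, adjusted p = 0.295). Without the 2 livers farthest from the median, LNA29 replicate 48 and saline replicate 43, r was 0.798; Jak2 had only 2 to 11 reads. Socs2 and Igfbp2 had Pearson r = -0.635 (permutation p = 0.0389, adjusted p = 0.580) and Spearman rho = -0.552 (permutation p = 0.0825, adjusted p = 0.728), and r = -0.373 without the 2 livers farthest from the median, LNA29 replicate 48 and saline replicate 49. Stat5b and Igf1 had Pearson r = -0.559 (permutation p = 0.0652, adjusted p = 0.580) and Spearman rho = -0.678 (permutation p = 0.0258, adjusted p = 0.580), with r = -0.502 without the 2 farthest livers. The called member Igfals and the hormone gene Igf1 had Pearson r = 0.395 (permutation p = 0.242, adjusted p = 0.580) and Spearman rho = 0.329 (permutation p = 0.318, adjusted p = 0.764), and r = 0.569 without the 2 farthest livers. Without LNA29 replicate 46 alone this r was 0.002, so that liver carries it.

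**Figure D4:**
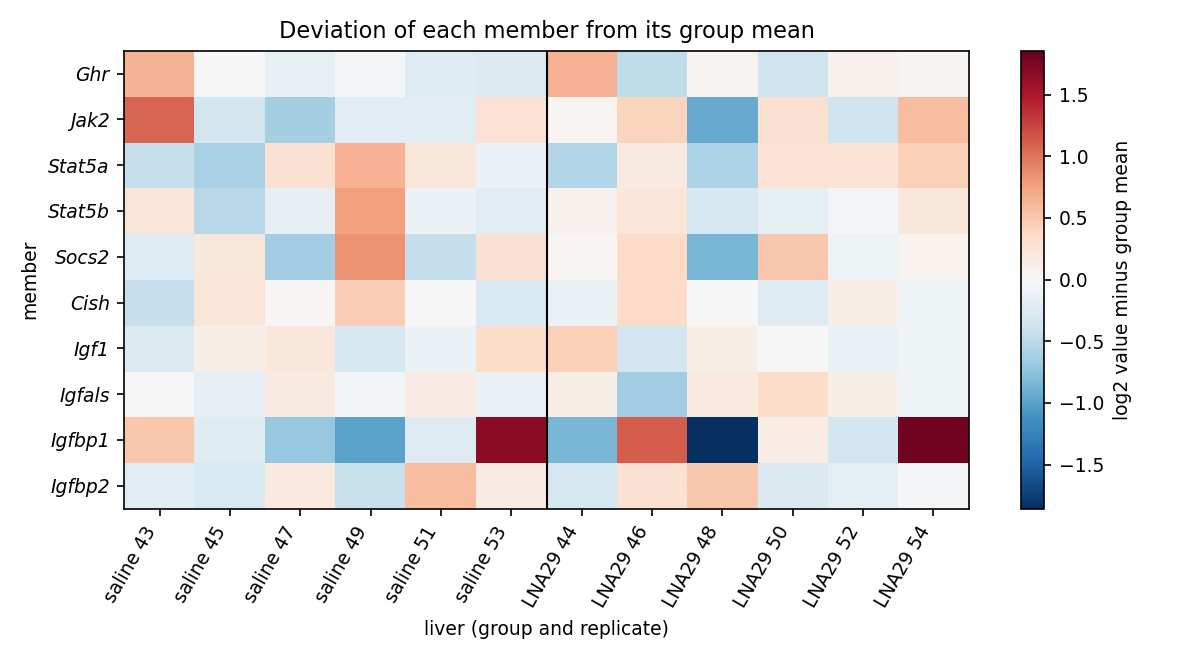
Deviation of each member's log2(value + 1) from its group mean in each liver, in log2 units, with a line between saline and LNA29 livers. Igfbp1 has the widest deviations, high in saline 53, LNA29 46 and LNA29 54 and low in LNA29 48, and Stat5a, Stat5b and Socs2 are high in saline 49.

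Among 4860 genes outside the members with a mean value of at least 500, those whose deviations were most like a member's were named as a description over 12 livers, with no test. For Igf1 they were Col4a2 (r = 0.889), Fam25c (0.813) and Cdc123 (0.791). For Socs2 they were Slc45a3 (r = 0.896), Capza2 (0.887) and Baz1b (0.876). For Igfbp1 they were Nit1 (r = 0.927), D19Bwg1357e (0.880) and 1810055G02Rik (0.867). None of these genes was chosen for a role in the axis.

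Other genes of the axis were taken from 8 lists with 99 genes in the table, of which 90 were tested. Of these 90, 1 passed with limma, Acot3, and 1 with edgeR and with DESeq2, also Acot3. At an unadjusted limma p under 0.05 there were 4 higher and 14 lower genes, or 20.0%, beside 7.91% of all tested genes (243 higher and 745 lower). With values beyond 1.5 SD of the group mean left out, 5 passed with limma, among them Acot3, Stat2, Mup20 and Cyp4a12a, the last named after its values were seen. That setting called 217 of all tested genes. The median log2 fold change was -0.16, beside -0.09.

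**Figure D5:**
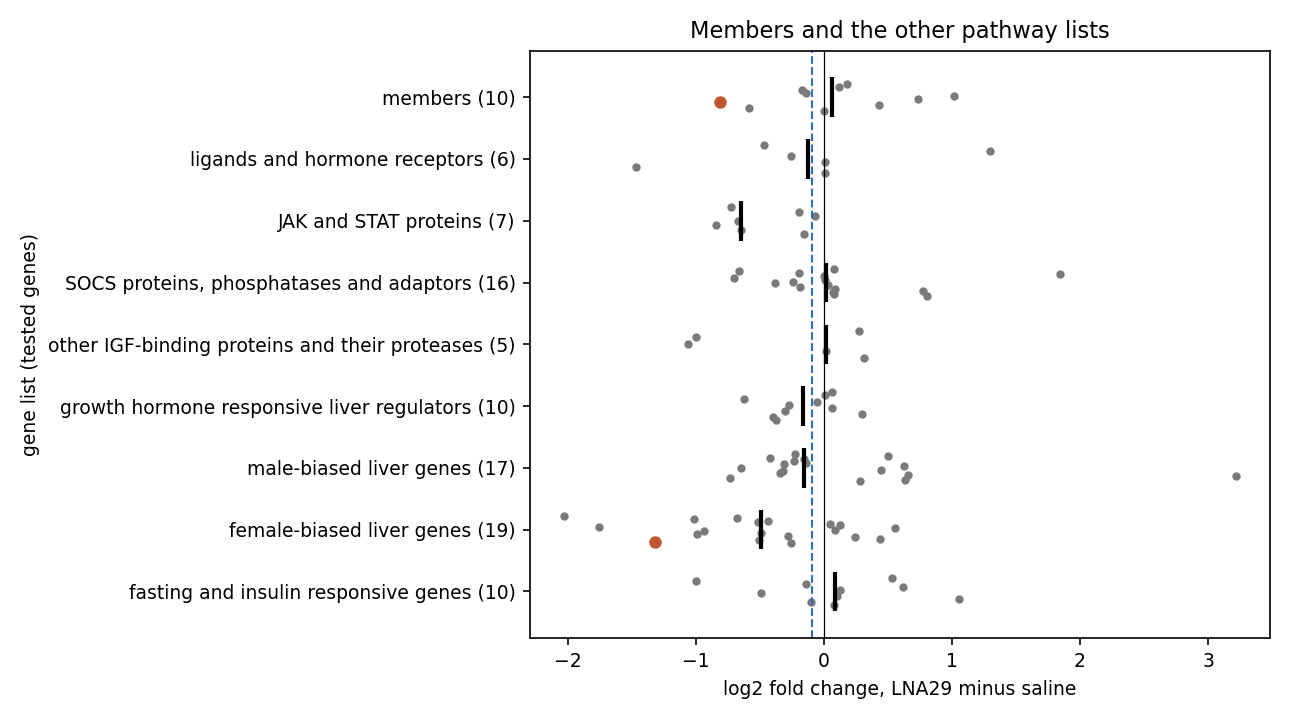
Log2 fold change, LNA29 minus saline, of each tested gene of the members and of 8 other lists, with the number of tested genes in brackets. Black bars are list medians, the dashed line is the median of all tested genes at -0.09, and larger orange points are Igfals and Acot3, with a limma adjusted p under 0.05.

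The ligand genes Gh and Prl had 0 reads in all 12 livers. Of 6 tested ligand and receptor genes none passed with limma, and 2 had an unadjusted p under 0.05. Prlr, the prolactin receptor and a relative of Ghr that also signals through JAK2 and STAT5, had medians of 11461 in saline and 7424 in LNA29 livers, and differed by -0.47 in log2 (standard error 0.19, limma adjusted p = 0.503). The leptin receptor gene Lepr had medians of 166 and 485 and a difference of 1.30 in log2 (standard error 0.55, limma adjusted p = 0.563), from 2 to 57 reads. Insr, the insulin receptor gene, had medians of 2123 and 1889. All 3 overlapped between groups.

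All 7 tested genes of the other JAK and STAT proteins were lower in LNA29 livers by their mean log2 values. The median of the 7 fold changes was -0.65. In the deposited scaling, 61.4% of all tested genes were lower. None passed with limma, and 4 had an unadjusted p under 0.05. Stat2 had medians of 1279 and 839 and differed by -0.67 in log2 (standard error 0.23, limma adjusted p = 0.377). The kinase gene Tyk2 had medians of 461 and 285 and differed by -0.72 in log2 (standard error 0.27, limma adjusted p = 0.455). Both are best known from interferon signalling. Whether they differed from Stat5a and Stat5b was not tested.

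Of 16 genes for SOCS proteins, phosphatases and adaptors none passed with limma, 1 had an unadjusted p under 0.05, and the median log2 fold change was 0.02. The smallest p was that of Ptpn6, a phosphatase that acts on JAK2, with medians of 860 and 634 and differed by -0.38 in log2 (standard error 0.18, limma adjusted p = 0.621). Among genes of the list with a mean value of at least 50, Socs6 and the JAK2 adaptor gene Sh2b1 followed. Their log2 fold changes were -0.66 (standard error 0.39) and -0.24 (standard error 0.17). Socs6 had only 9 to 20 reads in saline and 2 to 16 in LNA29 livers. Of 5 tested genes for other IGF-binding proteins and their proteases none passed with limma and none had an unadjusted p under 0.05. Igfbp3 and Igfbp7 had log2 fold changes of 0.31 (standard error 0.25) and 0.28 (0.18). Igfbp5 had medians of 99.5 and 73.2 from 0 to 16 reads, and no fold change is given because LNA29 replicate 46 had 0 reads. Of 10 growth hormone responsive liver regulators none passed with limma, 1 had an unadjusted p under 0.05, and the median was -0.16. Cebpa had medians of 8653 and 6709 and differed by -0.40 in log2 (standard error 0.17, limma adjusted p = 0.539). Cux2, a female-biased repressor, had -0.31 (standard error 0.21).

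Among 19 tested female-biased liver genes, which depend on the female pattern of growth hormone, 13 were lower and 6 higher, with a median log2 fold change of -0.49; 1 passed with limma and 6 had an unadjusted p under 0.05, all 6 lower. Of all tested genes 61.4% were lower in the deposited scaling, as were 745 of the 988 with an unadjusted limma p under 0.05. Acot3, an acyl-CoA thioesterase gene, had values of 2284 to 4272 in saline livers (median 3298) and 929 to 1925 in LNA29 livers (median 1276), with no overlap. It fell by 1.32 on the log2 scale with a standard error of 0.20 (limma adjusted p = 0.0224). The call was lost without saline replicate 43 (limma adjusted p = 0.0621), LNA29 replicate 50 (0.0784) or LNA29 replicate 54 (0.0610), and all alternatives gave adjusted p from 0.000109 (DESeq2) to 0.0784. Cyp2b13 had medians of 7107 and 3737 and differed by -0.99 in log2 (standard error 0.27, limma adjusted p = 0.210), and Acot4 had 920 and 611 and -0.51 (0.20, 0.487). Acot3 and Acot4 also respond to PPARA in fasting, so the list does not stand for growth hormone alone.

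Among 17 tested male-biased liver genes, 7 were higher and 10 lower, with a median of -0.16; none passed with limma and 2 had an unadjusted p under 0.05, both higher, Mup20 and Cyp4a12a. Cyp4a12a had 0 to 2 reads in saline and 1 to 6 in LNA29 livers. Mup20 had medians of 50820 and 89073 and differed by 0.63 in log2 (standard error 0.20, limma adjusted p = 0.302). The Mup genes are near-identical copies whose reads the counting could split, so this value is uncertain. Slco1a1 had 726 and 1200 and 0.50 (0.24), and Cyp2u1 had 156 and 74.1 and -0.73 (0.36). Cyp2u1 had only 8 to 17 reads in saline and 3 to 11 in LNA29 livers.

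Of 10 fasting and insulin responsive genes none passed with limma and 2 had an unadjusted p under 0.05, with a median of 0.09. Srebf1, a lipogenic regulator induced by insulin, had medians of 1281 and 569 and differed by -0.99 in log2 (standard error 0.30, limma adjusted p = 0.270). Fgf21, a fasting hormone, had medians of 282 and 468 and differed by 1.06 in log2 (standard error 0.38, limma adjusted p = 0.432). Pdk4 had medians of 338 and 570 and 0.62 (standard error 0.36).

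Markers of liver cell types were read beside the members, and their part in the members' values was not tested. The summed values of 6 marker lists were each compared between groups. The 2-sided exact permutation test gave p = 0.00866 for sinusoidal endothelial, 0.292 for hepatocyte, 0.491 for lymphocyte and blood, 0.680 for stellate, 0.734 for Kupffer and 0.844 for bile duct markers, with no adjustment over the 6. All 8 hepatocyte markers were tested, 6 higher and 2 lower, with a median log2 fold change of 0.14; Alb was the most abundant, and its medians were 79692500 and 80141900. The summed hepatocyte value was 34194200 to 115489000 in saline and 88786400 to 105963000 in LNA29 livers, lowest in saline replicate 49. Ahsg, a hepatocyte marker named after its values were seen, did not overlap, with 1212500 to 4270490 in saline and 7841410 to 10351200 in LNA29 livers, higher in 6 of 6, and a log2 fold change of 1.67 whose limma adjusted p was 0.582. Its 2-sided exact permutation test gave p = 0.00216; the limma standard error was 0.73, where the log2 SD within groups was 0.66 in saline and 0.14 in LNA29 livers. Sinusoidal endothelial markers were lower in 6 of 7, and their sum was 6095 to 6540 in saline and 5001 to 6247 in LNA29 livers, with Stab1 the most abundant. Of all tested genes 61.4% were lower in the deposited scaling, which bears on the counts for each cell type. Kupffer cell markers were lower in 6 of 7, though the only marker of theirs with an unadjusted limma p under 0.05 was the higher one, Marco, named after its values were seen. Clec4f was the most abundant, and the sums were 7484 to 11343 and 6571 to 15740. Stellate cell markers were lower in 5 of 7, and their most abundant gene Dcn was not among those 5 (log2 fold change 0.08); the sums were 3667 to 4720 and 3019 to 4575. Bile duct markers were higher in 4 of 6, and their most abundant gene Spp1 was not among those 4 (log2 fold change -0.38); the sums were 603 to 906 and 439 to 1170, and Krt7, Epcam and Tff3 were at 0 reads in some livers. Lymphocyte and blood markers were higher in 2 of 5, with Hbb-b1 the most abundant and sums of 2037 to 5652 and 2593 to 16883, and Cd3e was at 0 reads in some livers.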

How the data were processed

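The signal values were made by the authors before they were deposited. Per the submitters' notes, single reads were mapped with MapSplice2 to mm9 and reads per gene were estimated with RSEM, with no versions given. As the values show, each liver was then scaled to an upper quartile of 1000 over genes with reads (998 in saline replicate 49), and genes without reads were set to 1. In every liver 92.2% to 93.7% of the values were whole multiples of 1 read within 0.02, so recovered reads served count tests as alternatives. These called 17 genes with edgeR 4.0.16 and 72 with DESeq2 1.42.0, beside 20 with limma.

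The main test was limma-trend (limma 3.58.1, R 4.3.3) of log2(value + 1), for genes with a mean value of at least 10, with Benjamini-Hochberg adjustment over all 12486 tested genes and a threshold of 0.05. Exact permutation p-values set the difference between groups against that of all 924 divisions of the livers, and cannot fall below 0.00216. Limma p-values set it against the spread between livers, drawn toward a trend over all genes. For the most abundant genes that trend exceeds their own spread (Alb, standard error 2.73 with log2 SDs of 0.63 and 0.11). Tests were 2-sided apart from the thresholds of the study. No fold change is printed for genes at 3 reads or fewer in every liver; 2 of these, Socs4 and Cyp4a12b, passed the filter and count in the numbers and medians of their lists. Python 3.11.15 with numpy 2.4.6, scipy 1.17.1, pandas 2.3.3 and matplotlib 3.10.9 did the rest.

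Named genes are the members, the genes of a list that passed or whose groups did not overlap, and up to 3 per list with the smallest p and a mean value of at least 50. Some genes under this rule are not reported here. The members and lists were chosen with earlier results of these data known. The 4 columns of the authors' group means, fold change and p were not used, nor were 2 unnamed columns with numbers. Transcripts and 3′ UTRs came from GENCODE M21 on GRCm38, and miRNAs and promoters from RefSeq on GRCm38.p6, which differ from the build of the mapping. The scripts were first run on simulated data. Alternatives were pseudocounts of 0.1 and 10, 2 other filters, a common median, TMM scaling, edgeR, DESeq2, a transcript length covariate, values beyond 1.5 SD left out, the thresholds of the study, leaving out each liver and, added later, the sum of Stat5a and Stat5b.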

Additional observations from a re-analysis of the deposited data

Results flagged for a closer look

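A single liver stood apart from the other 5 of its group in 8 of 96 groups of values examined; chance gives about 1 in 20, or 4.8 groups. On the log2(value + 1) scale, Ghr was 11.85 in saline replicate 43, against 10.97 to 11.22 in the others. Prlr was 13.46 in LNA29 replicate 44, and Igfbp5, at 0 reads, was 1.0 in LNA29 replicate 46. Cux2 was 8.779 in LNA29 replicate 54. Alb was 24.80 in saline replicate 49, where albumin took 35.66% of the reads. The hepatocyte marker sum was 88790000 in LNA29 replicate 50, below the rest of its group, and the lymphocyte and blood marker sum was 16880 in LNA29 replicate 52, above the rest. The cause was not tested.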

How the results depend on the processing

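Against 20 genes called by limma (9 higher, 11 lower), a common median gave 10 (6 and 4), TMM scaling 14 (9 and 5), edgeR 17 (11 and 6), DESeq2 72 (42 and 30), the length covariate 123 (37 and 86), leaving out values beyond 1.5 SD 217 (73 and 144), and the thresholds of the study 762. Leaving out 1 liver gave 1 to 29. Members called were 0 with a common median, TMM scaling or edgeR, 2 with DESeq2, the length covariate or the thresholds of the study, 3 with values beyond 1.5 SD left out, and 0 to 1 with 1 liver left out. Pathway genes called were 5 with values beyond 1.5 SD left out and 0 to 1 with 1 liver left out. With the thresholds of the study they were 13 of 90, 6 of them higher, beside 6.10% of all tested genes.

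For Igfals the log2 fold change was -0.76 with a common median, -0.74 with TMM scaling, -0.71 with edgeR and -0.88 to -0.68 with 1 liver left out. For Igfbp2 it was 1.09 with DESeq2, 0.998 with the length covariate and 1.03 with values beyond 1.5 SD left out. With those values left out Ghr had -0.59, Jak2 reversed to 0.073 and Socs2 reversed to 0.17. With 1 liver left out Jak2 had -0.26 to 0.073, Stat5a -0.0009 to 0.25 and Cish -0.083 to 0.093. The cause was not tested. No paired analysis was possible because saline mice carry odd and LNA29 mice even numbers and no pairs are given.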
